A study of Mus musculus with 8 samples.

Results

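Cells make cholesterol and fatty acids from acetyl-CoA with enzymes whose genes answer to a shared transcriptional program. Its transcription factors, the sterol regulatory element-binding proteins (SREBPs), are held in the endoplasmic reticulum with their escort SCAP by INSIG proteins while sterols are plentiful. When sterols run low, SCAP carries the SREBPs to the Golgi, where proteases free the part that enters the nucleus and binds the promoters of the synthesis genes. Srebf2 is best known for driving cholesterol synthesis and Srebf1 for driving fatty acid synthesis. The liver X receptors (LXRs) act against sterol excess: oxysterols activate them, and they raise the sterol exporters Abca1 and Abcg1 and also Srebf1 and Scd1. In the lung, alveolar type 2 (AT2) cells make the lipids of surfactant and use the same enzymes heavily, so these genes are not specific to endothelial cells (ECs).

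The genes described here are 38 genes of this program, listed by name with earlier results of these data known, out of 54532 genes counted in bulk RNA-seq of mouse lung ECs. They were grouped by role into 5 SREBP regulators, 8 enzymes from acetyl-CoA to squalene, 10 enzymes from squalene to cholesterol, the sterol carrier Stard4, 3 enzymes of fatty acid synthesis, 7 desaturases and elongases, and 4 genes of the LXR and sterol efflux arm. All 38 passed the filter on low counts that left 15564 genes for testing. Genotype was WT in both groups, and per the study's methods the strain was C57BL/6J. The 4 normoxia libraries came from mice kept in room air at 21% O2, and the 4 hyperoxia libraries came from mice kept at 80% O2 between birth and postnatal day 14, when lungs were taken in both groups. Prolonged neonatal hyperoxia is used in mice to model bronchopulmonary dysplasia, a lung disease of preterm infants. Per the study's methods, cells bound to beads against the leukocyte protein CD45 were removed, and cells bound to beads against the EC protein CD31 were kept. Such a fraction is enriched for ECs and can carry RNA of other lung cells. The labels do not say whether each library came from separate mice, so p-values measure the spread between these libraries.

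Library totals ran from 16098086 to 18300730 counts (exact two-sided permutation p = 0.457 between the groups). Genes were tested with edgeR's quasi-likelihood test, and called means an adjusted p under 0.05 over all genes tested. EC markers were abundant throughout: the 10 markers used for ECs, Pecam1 and Cdh5 among them, summed to 15945 to 16868 CPM (the count of a gene for each 1e+06 counts of its library, TMM-scaled) in normoxia and 15501 to 16332 CPM in hyperoxia, and 3 of them were called higher and 3 lower. The calls made up 30% of these EC markers in each direction, where 18.4% of all genes tested were called higher and 17.2% lower. Tek had the largest fall (-0.79 on the log2 scale), with means of 1182 CPM in normoxia and 682 CPM in hyperoxia. Emcn had the largest rise, 0.42 on the same scale. The EC sum thus hides changes of single markers. AT2 markers all moved the same way. All 10 were higher in hyperoxia, none was at 0 in any library, and their sum was 252 to 355 CPM in normoxia against 2413, 2378, 806 and 2120 CPM in hyperoxia 1 to 4. Their rises were unequal. The smallest was that of Abca3, from 110 to 145 CPM (log2 fold change 0.39), and the largest that of Slc34a2, from 11.0 to 149 CPM (3.76). In hyperoxia 3, Abca3 was at 0.819, Etv5 at 0.659 and Sftpc at 0.309 times the mean of the other hyperoxia libraries. Alveolar type 1 (AT1) markers were higher for 6 of 6, with sums of 71.8 to 88.1 CPM in normoxia and 139.6 to 375 CPM in hyperoxia. Fibroblast markers were higher for 3 of 7 (sums of 120.0 to 177 and 147 to 296 CPM) and mural cell markers for 4 of the 5 tested (20.4 to 43.5 and 39.6 to 97.3 CPM), with the mural marker Cnn1 near 0. Leukocyte markers were higher for 0 of 8 and lower for 1 (106 to 185 and 108 to 186 CPM). Cd68 was the marker called lower (log2 fold change -0.67). The markers not called ranged from -0.08 to 1.58 on the log2 scale, Marco being the highest (adjusted p = 0.0652). The part of AT1, fibroblast, mural and leukocyte cells in the results was not tested. In the hyperoxia group the AT2, AT1, fibroblast and mural sums were lowest in hyperoxia 3, and that library held almost no counts on Y-linked genes (3.95e-05% of counts, against at least 0.00849% in every other library).

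Promoter sequences are shown for 4 of the 38 genes, because SREBPs act at such sites and the 4 span a regulator, both synthesis branches and a gene whose level was not called different. They are the 250 bases upstream of the transcription start in RefSeq annotation of mouse build GRCm38.p6, written 5′ to 3′ on the strand of the gene. Capitals mark matches on either strand to a sterol regulatory element core (TCACNCCAC), a CCAAT box (CCAAT, or ATTGG on the other strand) or an E box (CACGTG). Hmgcs1 was shown for its sterol regulatory element core, at 137 bases before the start on chr13:119690101-119690350 (plus strand). Fasn lies on chr11:120824548-120824797 (minus strand) and has 3 CCAAT matches, of which a pair overlaps. The window of Srebf1 is that of the RefSeq start farthest upstream, chr11:60222582-60222831 (minus strand). Srebf1 has other RefSeq starts whose windows are not shown, and which start these cells use was not tested. Mvk lies on chr5:114444019-114444268 (plus strand) and has 5 CCAAT matches.
Hmgcs1: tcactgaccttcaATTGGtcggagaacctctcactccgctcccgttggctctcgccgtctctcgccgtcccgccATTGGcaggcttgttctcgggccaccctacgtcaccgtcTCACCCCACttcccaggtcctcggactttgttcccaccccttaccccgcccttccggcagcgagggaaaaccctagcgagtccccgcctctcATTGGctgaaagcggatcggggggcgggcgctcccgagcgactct
Fasn: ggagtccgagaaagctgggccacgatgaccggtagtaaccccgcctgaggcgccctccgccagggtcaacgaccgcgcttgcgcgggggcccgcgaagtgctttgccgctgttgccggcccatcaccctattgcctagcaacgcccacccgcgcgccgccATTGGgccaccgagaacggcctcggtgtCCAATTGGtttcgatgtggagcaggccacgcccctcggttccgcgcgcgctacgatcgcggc
Srebf1: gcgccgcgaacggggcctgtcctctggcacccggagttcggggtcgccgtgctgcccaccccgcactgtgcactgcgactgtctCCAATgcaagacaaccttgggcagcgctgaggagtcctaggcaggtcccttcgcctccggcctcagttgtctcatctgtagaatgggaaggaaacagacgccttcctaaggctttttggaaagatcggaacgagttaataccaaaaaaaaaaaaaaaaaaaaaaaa
Mvk: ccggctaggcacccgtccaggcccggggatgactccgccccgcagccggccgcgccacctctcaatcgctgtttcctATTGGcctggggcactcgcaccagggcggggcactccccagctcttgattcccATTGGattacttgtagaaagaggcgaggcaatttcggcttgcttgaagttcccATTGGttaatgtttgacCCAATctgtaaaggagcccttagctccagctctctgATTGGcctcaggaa

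A window was found for 30 of the 38 genes. The sterol regulatory element core was in 1 of these, Hmgcs1, against 1.22% of 27025 genes with such a window. Only this exact pattern was searched, so a window without it can still hold a variant of the element. A CCAAT box was in 21 of 30, against 37.5% of all genes. It was present in 13 of the 18 genes with a window that were called higher in hyperoxia and in 8 of the other 12. An E box was in 7 of 30 against 6.86% of all genes. The DR4 element read by LXRs (AGGTCA repeated after any 4 bases) was in 0 of 30, against 0.0148% of all genes (4 of 27025), so that its absence here says nothing of LXR sites. These matches describe letters in the window, and binding was not measured.

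Across the 38 genes, the levels in hyperoxia were higher for most and lower for few. At an adjusted p under 0.05, 23 of 38 genes (60.5%) were called higher, where 18.4% of all tested genes were called higher. Since the list was drawn up with earlier results known, this difference is a description. Only Stard4 and Elovl5 were called lower (5.26%, against 17.2% of all tested genes), and 13 were not called. Called genes in either direction made up 35.6% of all genes tested. In 21 of the 38, all 4 hyperoxia libraries were above all 4 normoxia libraries, as in 17.8% of all genes tested, and in 2 they were all below, as in 17.6%. The median log2 fold change of the 38 genes was 0.34, against -0.0040 for all genes tested. Most changes were modest: with a log2 fold change of at least 1 also required, 5 of the 38 were called higher (5.57% of all genes) and 0 lower (1.39% of all genes). The 5 were Scd1, Fasn, Lss, Nr1h3 and Sqle. Without hyperoxia 3, 20 were called higher and 2 lower, where 17.7% and 15.9% of all genes tested were, and the calls lost were those of Mvd, Sc5d and Dhcr7. In bulk samples, fewer cells of a type and less RNA per cell cannot be told apart. The part of the AT2 markers in these differences is taken up, with values, after the gene groups.

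**Figure D1:**
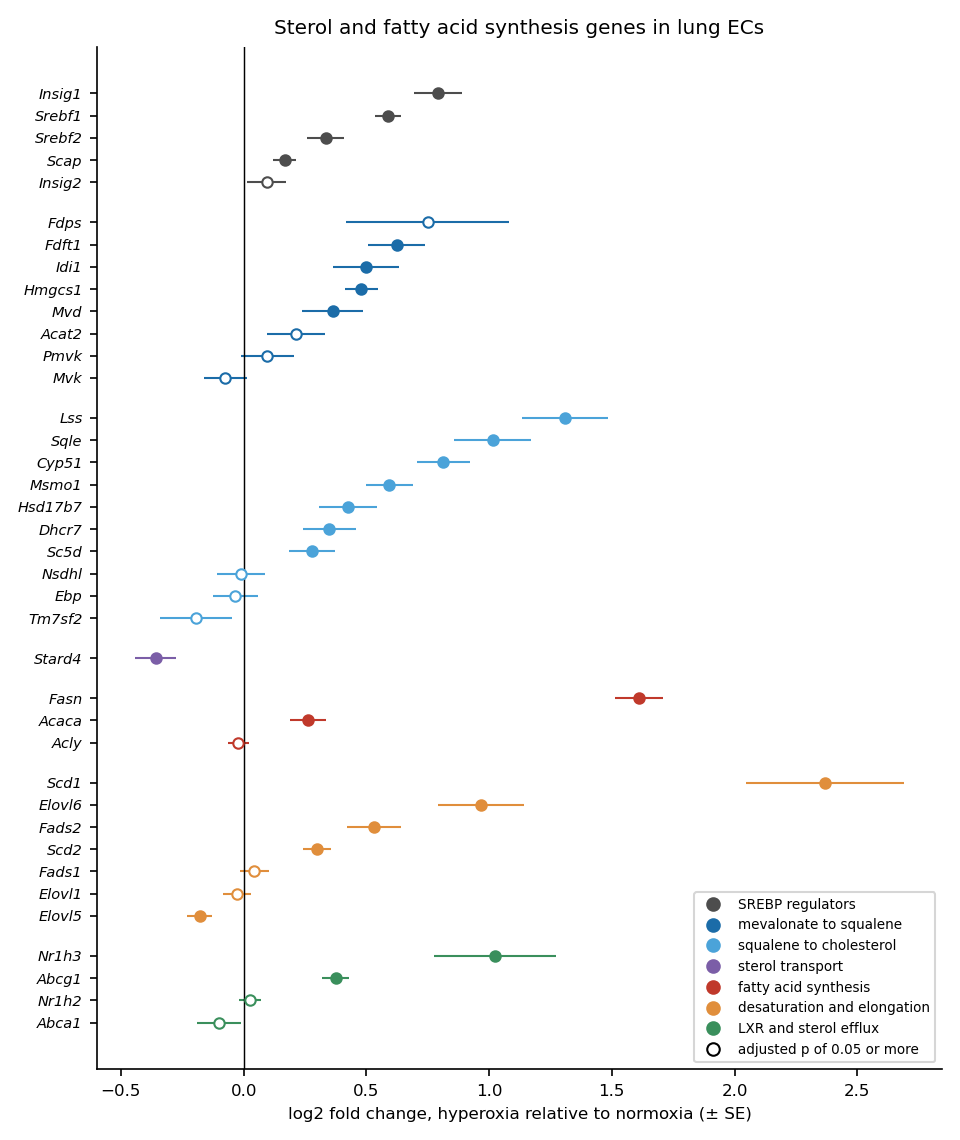
Log2 fold change (hyperoxia relative to normoxia) of each of the 38 genes on the horizontal axis, with bars of 1 SE, grouped and coloured by role. Filled points have an adjusted p under 0.05 (edgeR quasi-likelihood test, 4 libraries per group) and open points do not. Scd1 lies farthest to the right at 2.37, and the filled points left of 0 are Stard4 and Elovl5.

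Of the 5 SREBP regulators, 4 rose and Insig2 was not called. Srebf1 (ENSMUSG00000020538, chromosome 11, 60199089 to 60222581 in mm10, minus strand) measured 59.5, 60.4, 63.9 and 57.6 CPM in normoxia 1 to 4 and 84.8, 91.0, 94.3 and 92.5 CPM in hyperoxia 1 to 4. The groups were separated by a wide gap, with hyperoxia 1 the lowest of its group, and the group means were 60.3 ± 2.65 and 90.7 ± 4.15 CPM with SD over 4 libraries (log2 fold change 0.59, SE 0.0522, adjusted p = 4.07e-06). The 1.93% of its exon bases that overlap Rai1 on the opposite strand cannot be assigned without strand information, and Rai1 moved from 168 to 143 CPM. Srebf2 was the most abundant regulator per length, at 16.6 ± 1.42 FPKM (fragments scaled by gene length and library total, SD, n = 4) in normoxia. It measured 133, 109, 119.5 and 118 CPM in normoxia 1 to 4 and 137, 163, 165 and 140.2 CPM in hyperoxia 1 to 4. The lowest hyperoxia value was just above the highest normoxia value (log2 fold change 0.33, SE 0.0762, adjusted p = 0.00488). Scap, the escort, had a small rise. Its values were 59.9, 59.2, 60.1 and 56.5 CPM in normoxia 1 to 4 and 64.3, 67.6, 67.1 and 65.6 CPM in hyperoxia 1 to 4, again without overlap (log2 fold change 0.17, SE 0.0463, adjusted p = 0.0136). Gene models on the opposite strand cover 13.2% of the exon bases of Scap and 12.1% of those of Hmgcs1, and both models were under 1 CPM.

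The INSIG genes, whose products retain SCAP in the endoplasmic reticulum, differed from each other. Insig1, itself a classic SREBP target, measured 29.8, 31.8, 32.4 and 30.3 CPM in normoxia 1 to 4 and 42.7, 59.3, 60.4 and 53.0 CPM in hyperoxia 1 to 4 and rose 1.73-fold (log2 fold change 0.79, SE 0.0978, adjusted p = 9.50e-05). Hyperoxia 1 was the lowest of the hyperoxia libraries and was still above every normoxia library. Insig2 measured 29.1, 29.8, 32.2 and 29.5 CPM in normoxia 1 to 4 and 32.8, 34.4, 27.2 and 34.2 CPM in hyperoxia 1 to 4. Here the groups overlapped, with hyperoxia 3 below all 4 normoxia libraries (log2 fold change 0.09, SE 0.0778, adjusted p = 0.383). The log2 ratio of Insig1 to Insig2 within a library, which does not depend on library scaling, averaged 0.04 ± 0.0353 in normoxia, against 0.74 ± 0.323 for hyperoxia (SD over 4 libraries each, exact two-sided permutation p = 0.0286, adjusted p = 0.0343 over the 6 pairs tested). No split of 8 libraries into groups of 4 gives a p below 0.0286. The ratio of Srebf1 to Srebf2 also shifted, by 0.26 on the log2 scale (SE 0.0891, exact permutation p = 0.0286, adjusted p = 0.0343).

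The enzymes that build squalene from acetyl-CoA rose in part. Of the 8, 4 rose (Hmgcs1, Idi1, Mvd and Fdft1), 0 fell and 4 were not called. Hmgcs1 (ENSMUSG00000093930, chromosome 13, 119690379 to 119708260 in mm10, plus strand), which makes HMG-CoA at the entry of the pathway and whose promoter window is printed above, was the most abundant of the 8 per length, at 11.3 ± 0.408 FPKM in normoxia (SD, n = 4). It measured 53.8, 51.2, 50.5 and 53.9 CPM in normoxia 1 to 4 and 64.6, 71.7, 81.2 and 74.2 CPM in hyperoxia 1 to 4. Every hyperoxia library was above every normoxia library, hyperoxia 3 being the highest (log2 fold change 0.48, SE 0.0663, adjusted p = 1.47e-04). Fdft1, the squalene synthase at the end of this stretch, measured 15.1, 14.3, 18.2 and 15.3 CPM in normoxia 1 to 4 and 19.6, 26.6, 28.0 and 22.9 CPM in hyperoxia 1 to 4, again without overlap (log2 fold change 0.62, SE 0.116, adjusted p = 0.00126). Its counts are uncertain, since 18.3% of its exon bases lie opposite exons of Ctsb, which was far more abundant and moved from 233 to 298 CPM, and 9.38% of its 50-base words (every stretch of 50 bases in its exons) occur in a pseudogene.

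The steps between these were less uniform. Idi1, the isomerase that balances the 2 isoprene units, changed by 0.50 on the log2 scale (SE 0.134, adjusted p = 0.0119), with 17.7% of its 50-base words shared with a pseudogene. Mvd, the decarboxylase that makes the isoprene unit, was at 0.36 (SE 0.125, adjusted p = 0.0392), and this call was lost when any library other than normoxia 3 was left out (adjusted p up to 0.106). The kinases Mvk and Pmvk, which act before it, were not called: Mvk spanned 14.4 to 17.1 CPM in normoxia and 14.0 to 16.4 CPM in hyperoxia, and Pmvk spanned 12.1 to 14.4 and 12.2 to 15.97 CPM. Mvk had overlapping groups (log2 fold change -0.07, adjusted p = 0.543). Acat2, which joins acetyl-CoA units, was at 0.21 (adjusted p = 0.182) and shares 39.1% of its 50-base words with Acat3. Fdps, which makes farnesyl pyrophosphate, was barely counted, at 9 to 26 reads per library, and its log2 fold change of 0.75 (SE 0.332, adjusted p = 0.0986) was not called. Reads of Fdps could also be split in counting, since 26.7% of its exon bases overlap Gm43738 on the same strand and 15.5% of its 50-base words occur at other loci.

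From squalene to cholesterol, 7 of 10 enzymes rose, 0 fell and 3 were not called. Sqle, the squalene epoxidase and a rate-controlling step, measured 12.9, 10.4, 15.9 and 14.3 CPM in normoxia 1 to 4 and 21.2, 29.4, 32.4 and 25.1 CPM in hyperoxia 1 to 4. The groups did not overlap and the rise was 2.02-fold (log2 fold change 1.01, SE 0.155, adjusted p = 6.30e-04). Lss, which closes the ring to lanosterol, was low in all libraries at 2.45, 2.79, 2.63 and 2.43 CPM in normoxia 1 to 4 and 4.91, 6.17, 6.41 and 8.04 CPM in hyperoxia 1 to 4, the highest value being hyperoxia 4 (log2 fold change 1.31, SE 0.175, adjusted p = 1.17e-04). This was the largest fitted change among the cholesterol enzymes. Per length Lss stayed low, at 0.237 ± 0.0146 FPKM in normoxia against 0.589 ± 0.119 FPKM in hyperoxia (SD, n = 4). Cyp51 (ENSMUSG00000001467, chromosome 5, 4081145 to 4104746 in mm10, minus strand), the lanosterol demethylase, measured 19.7, 16.5, 18.9 and 19.5 CPM in normoxia 1 to 4 and 25.8, 36.3, 36.3 and 32.7 CPM in hyperoxia 1 to 4 (log2 fold change 0.81, SE 0.108, adjusted p = 1.23e-04). Hyperoxia 1 was again the lowest library of its group, and the groups were apart. Only 3.76% of its exon bases overlap Akap9 on the opposite strand, which moved from 142 to 137 CPM. Msmo1, a methylsterol oxidase of the demethylation steps that follow, measured 17.4, 14.6, 16.2 and 17.3 CPM in normoxia 1 to 4 and 20.8, 25.1, 27.8 and 25.1 CPM in hyperoxia 1 to 4, also without overlap (log2 fold change 0.59, SE 0.096, adjusted p = 4.69e-04).

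The other enzymes of this stretch changed less. Hsd17b7, the ketoreductase of sterol demethylation, rose by 0.42 on the log2 scale (SE 0.117, adjusted p = 0.0136). Sc5d and Dhcr7, which act near the end of the pathway, had log2 fold changes of 0.28 (adjusted p = 0.0351) and 0.35 (adjusted p = 0.0237). Both had overlapping groups, with hyperoxia 1 inside the normoxia range, and both calls were lost when normoxia 1, normoxia 2, hyperoxia 2 or hyperoxia 3 was left out (adjusted p up to 0.12 for Sc5d and 0.0748 for Dhcr7). Sc5d also lost its call without normoxia 4. Tm7sf2, a sterol reductase whose step lies between those of Cyp51 and Msmo1, was not called (log2 fold change -0.19), nor were Nsdhl and Ebp (-0.01 and -0.04). Ebp, the sterol isomerase, was the most abundant of the 10 per length at 9.90 ± 1.07 FPKM in normoxia (SD, n = 4). It measured 23.6, 20.1, 25.9 and 22.5 CPM in normoxia 1 to 4 and 23.2, 24.9, 21.9 and 20.03 CPM in hyperoxia 1 to 4, with overlap (adjusted p = 0.796).

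Summed over the 18 cholesterol enzymes, the level was 267, 245, 272 and 260.3 CPM in normoxia 1 to 4 and 308, 364, 381 and 339 CPM in hyperoxia 1 to 4, which is 261 ± 11.9 against 348 ± 31.7 CPM (SD, n = 4 each), or 1.33-fold. Within the hyperoxia group the libraries had a shared order. Among the 11 cholesterol enzymes called higher, hyperoxia 3 was the highest library in 9 and hyperoxia 1 was the lowest in 10. Hyperoxia 3 is the hyperoxia library with the lowest AT2 marker sum. Hyperoxia 1 and 2 had nearly the same AT2 marker sum (2413 and 2378 CPM), while their cholesterol enzyme sums were 308 and 364 CPM. A relation between the 2 sums was not tested. Sqle in hyperoxia 3 was 1.28 times the mean of the other hyperoxia libraries, Dhcr7 1.24 times and Hmgcs1 1.16 times.

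Stard4, a cytosolic carrier that moves cholesterol between membranes and is counted among SREBP targets, went the other way. It measured 189, 184, 174 and 177 CPM in normoxia 1 to 4 and 118, 149.6, 162 and 135 CPM in hyperoxia 1 to 4, so all hyperoxia libraries were below all normoxia libraries (log2 fold change -0.36, SE 0.0824, adjusted p = 0.00559). Here hyperoxia 1 was the lowest and hyperoxia 3 the highest of its group. Per length Stard4 was more abundant than any cholesterol enzyme, at 32.1 ± 1.24 FPKM in normoxia against 25.1 ± 3.40 FPKM in hyperoxia (SD, n = 4).

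**Figure D2:**
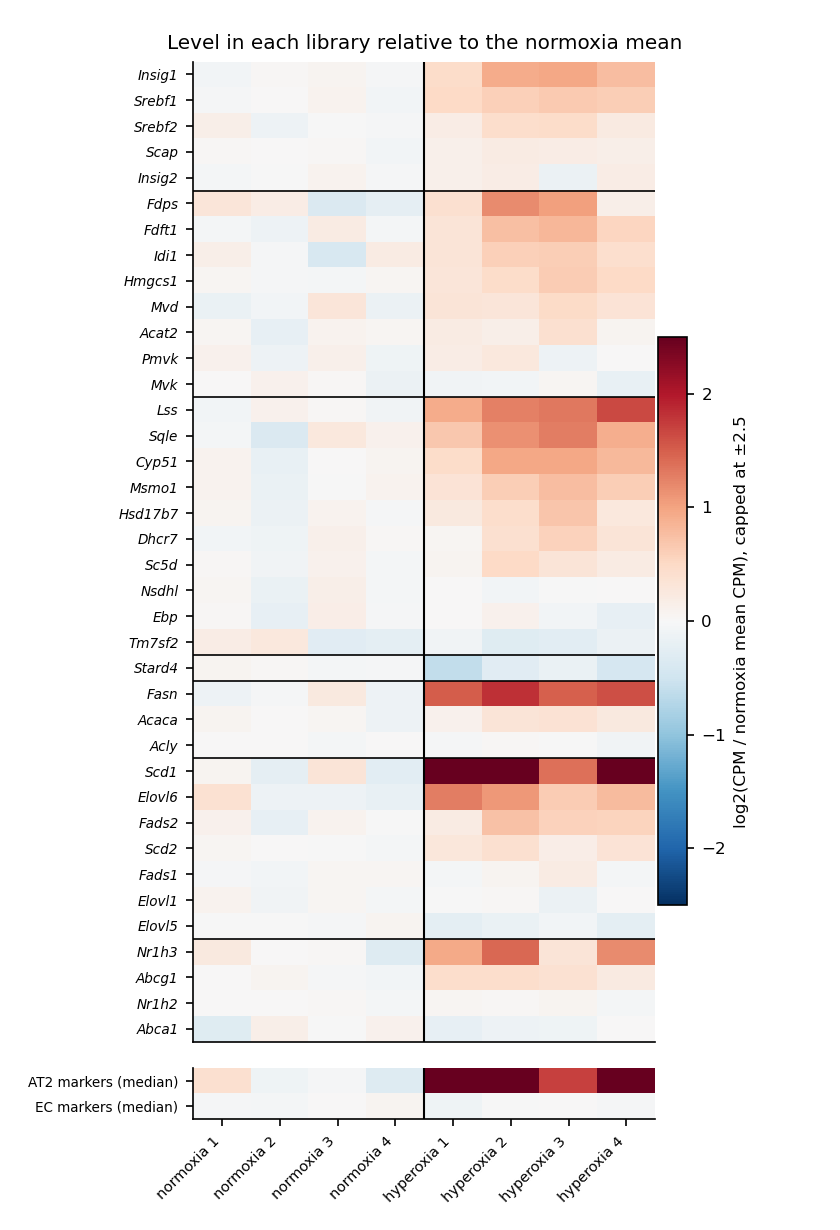
Level of the 38 genes (rows, grouped by role with lines between groups) in each library (columns, 4 normoxia and 4 hyperoxia), as log2 of CPM over the normoxia mean. The 2 rows at the foot give the median over 10 AT2 and 10 EC markers. Red is above and blue below the normoxia mean, with colours capped at 2.5. In hyperoxia 3 Scd1 and the AT2 markers are paler than in the other hyperoxia libraries, while most cholesterol enzymes are not.

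In fatty acid synthesis, Fasn and Acaca rose and Acly was not called. Fasn (ENSMUSG00000025153, chromosome 11, 120805846 to 120824547 in mm10, minus strand), the synthase that makes palmitate, had the lowest adjusted p of the 38 genes. It measured 37.0, 39.4, 47.5 and 36.8 CPM in normoxia 1 to 4 and 115, 142, 113 and 122 CPM in hyperoxia 1 to 4. The gap between the groups was far larger than the spread within them, and the rise was 3.06-fold (log2 fold change 1.61, SE 0.097, adjusted p = 6.86e-07). In hyperoxia 3 its level was 0.892 times the mean of the other hyperoxia libraries. Acaca, which makes the malonyl-CoA that Fasn extends, had a small rise (log2 fold change 0.26, SE 0.0719, adjusted p = 0.0131), and 30.4% of its 50-base words also occur elsewhere, mostly in a pseudogene. Acly, which supplies cytosolic acetyl-CoA to both branches, was the most abundant of the 3 per length at 40.1 ± 0.705 FPKM in normoxia (SD, n = 4). It measured 215, 216, 208 and 216 CPM in normoxia 1 to 4 and 209.9, 218, 213 and 201 CPM in hyperoxia 1 to 4. These groups overlapped (log2 fold change -0.02, SE 0.0442, adjusted p = 0.738).

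Of the 7 desaturases and elongases, 4 rose, 1 fell and 2 were not called. Scd1 (ENSMUSG00000037071, chromosome 19, 44394451 to 44407709 in mm10, minus strand), the desaturase that makes oleate and palmitoleate, had the largest fold change of the 38 genes. It measured 22.5, 18.2, 26.7 and 17.8 CPM in normoxia 1 to 4 and 125, 129.7, 55.4 and 129 CPM in hyperoxia 1 to 4. Hyperoxia 3 lay far below the other hyperoxia libraries, at 0.433 times their mean, and still above every normoxia library (log2 fold change 2.37, SE 0.322, adjusted p = 0.00166). The AT2 marker Sftpc, which encodes surfactant protein C, was also lowest in hyperoxia 3 among the hyperoxia libraries: it measured 149, 98.6, 102 and 74.6 CPM in normoxia 1 to 4 and 1423, 1408, 419 and 1234 CPM in hyperoxia 1 to 4. Without hyperoxia 3 the log2 fold change of Scd1 was 2.59 (SE 0.13, adjusted p = 1.39e-06). Scd2, the paralog that predominates per length in these cells at 40.9 ± 1.03 FPKM in normoxia (SD, n = 4; Scd1 was at 4.37 ± 0.871 FPKM), measured 231, 226, 222 and 218 CPM in normoxia 1 to 4 and 273, 296, 251 and 285 CPM in hyperoxia 1 to 4. Its rise was 1.23-fold, without overlap (log2 fold change 0.30, SE 0.0551, adjusted p = 0.00117). The ratio of Scd1 to Scd2 moved from -3.42 ± 0.271 to -1.41 ± 0.513 on the log2 scale (SD, n = 4 each, exact permutation p = 0.0286, adjusted p = 0.0343). Of their 50-base words, 4.56% for Scd1 and 3.75% for Scd2 occur in other genes, their family among them. For both genes these words come from a gene model that differs from the one counted.

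Elovl6, which extends palmitate to stearate and so supplies the SCD enzymes, measured 6.25, 4.38, 4.36 and 4.20 CPM in normoxia 1 to 4 and 11.6, 10.1, 7.44 and 8.27 CPM in hyperoxia 1 to 4. The groups were apart, although normoxia 1 stood above the other normoxia libraries (log2 fold change 0.97, SE 0.176, adjusted p = 0.00107). Fads2 rose and Fads1 was not called, although both encode desaturases of polyunsaturated fatty acids and are neighbours on chromosome 19. Fads2 measured 26.6, 21.5, 26.2 and 24.6 CPM in normoxia 1 to 4 and 28.4, 41.2, 36.9 and 36.3 CPM in hyperoxia 1 to 4, with hyperoxia 1 the lowest of its group (log2 fold change 0.53, SE 0.109, adjusted p = 0.00283). Fads1 measured 108, 105, 113 and 113 CPM in normoxia 1 to 4 and 105, 114, 126 and 106 CPM in hyperoxia 1 to 4, with overlap (log2 fold change 0.04, SE 0.0607, adjusted p = 0.617). The log2 ratio of Fads1 to Fads2 fell by 0.48 (SE 0.114, exact permutation p = 0.0286, adjusted p = 0.0343). Elovl5, an elongase of polyunsaturated fatty acids, was the most abundant of all 38 genes per length, at 109.9 ± 3.25 FPKM in normoxia (SD, n = 4), and it fell. It measured 387, 386, 382 and 407 CPM in normoxia 1 to 4 and 330.2, 347, 370.4 and 331 CPM in hyperoxia 1 to 4, without overlap but by a small amount (log2 fold change -0.18, SE 0.0505, adjusted p = 0.0147), and the call was lost without hyperoxia 4 (adjusted p = 0.055). Elovl1 was not called (log2 fold change -0.03, adjusted p = 0.738). Among the 4 genes of this group called higher, hyperoxia 3 was the lowest hyperoxia library in 3, the opposite of its place among the cholesterol enzymes.

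**Figure D3:**
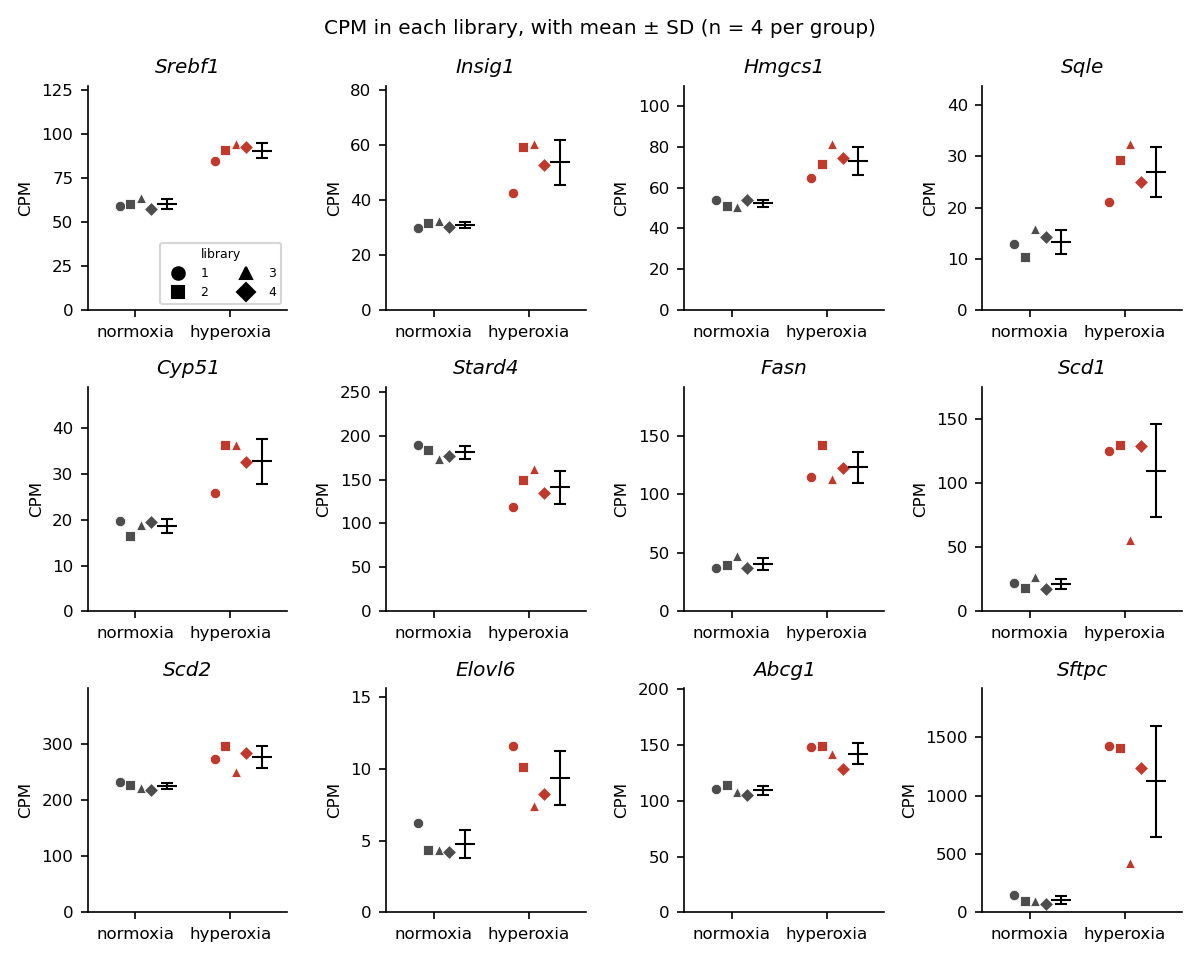
CPM of 11 of the 38 genes and of the AT2 marker Sftpc (vertical axes, each starting at 0) in 4 normoxia and 4 hyperoxia libraries, with marker shape giving the library number and black bars the mean ± SD. The hyperoxia 3 triangle is the highest hyperoxia point for Hmgcs1 and Sqle and the lowest for Scd1, Elovl6 and Sftpc.

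The LXR and sterol efflux genes were split. Abcg1 (ENSMUSG00000024030, chromosome 17, 31057698 to 31115777 in mm10, plus strand), which exports cholesterol to lipoproteins, rose: it measured 111, 114, 108 and 105 CPM in normoxia 1 to 4 and 149, 149, 142 and 129 CPM in hyperoxia 1 to 4, without overlap (log2 fold change 0.37, SE 0.0549, adjusted p = 2.24e-04). Abca1, the other LXR-driven exporter, measured 149.9, 204, 184 and 198 CPM in normoxia 1 to 4 and 160.4, 169, 171 and 186 CPM in hyperoxia 1 to 4. Its groups overlapped, with normoxia 1 the lowest of all 8 libraries (log2 fold change -0.10, SE 0.0892, adjusted p = 0.416), and without that library it was called lower (log2 fold change -0.19, adjusted p = 0.0351). The ratio of Abcg1 to Abca1 was higher in hyperoxia by 0.47 on the log2 scale (SE 0.14), which did not pass the exact permutation test (p = 0.0571, adjusted p = 0.0571). Nr1h3, which encodes LXR alpha, measured 2.20, 1.88, 1.90 and 1.49 CPM in normoxia 1 to 4 and 3.60, 5.04, 2.35 and 4.22 CPM in hyperoxia 1 to 4. It had the same library order as Scd1 in that hyperoxia 3 was lowest, close to normoxia 1 (log2 fold change 1.02, SE 0.247, adjusted p = 0.00632). Nr1h2, which encodes LXR beta, was by far the more abundant receptor per length, at 37.1 ± 0.936 FPKM against 0.737 ± 0.116 FPKM for Nr1h3 in normoxia (SD, n = 4 each). It measured 126, 125, 128 and 121 CPM in normoxia 1 to 4 and 130.0, 128, 132 and 121 CPM in hyperoxia 1 to 4, with overlap (log2 fold change 0.03, adjusted p = 0.696). The log2 ratio of Nr1h3 to Nr1h2 was higher by 0.95 in hyperoxia (SE 0.271, exact permutation p = 0.0286, adjusted p = 0.0343).

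The AT2 markers and the 38 genes can be set side by side in a fit that holds the mean log2 CPM of the 10 AT2 markers as a further term beside the group. The marker score did not overlap between the groups, so the 2 terms share much of their information and the errors grew: the median SE over the 23 genes called higher went from 0.108 to 0.281. With the score in the model, 244 genes of all genes tested were called, and 4 of the 38 were called, all higher (1.28% of all genes were called higher): Srebf1, Insig1, Hmgcs1 and Fasn. Their log2 fold changes were 0.70 (SE 0.155, adjusted p = 0.042), 1.18 (SE 0.252, adjusted p = 0.0413), 0.83 (SE 0.166, adjusted p = 0.0277) and 1.32 (SE 0.263, adjusted p = 0.0387). Within hyperoxia the score was 5.32 in hyperoxia 3 and 6.59 to 6.72 in the other libraries, so the shifts that follow rest largely on where that library stood in its group, as given above, and add no independent evidence. Hyperoxia 3 also had the lowest AT1, fibroblast and mural sums of its group and almost no Y-linked counts. The score cannot be told apart from these. For all 11 cholesterol enzymes called higher, the fitted log2 fold change was larger with the score than without, with a median of 0.96 against 0.50. For the 4 desaturases and elongases called higher, the median went from 0.75 to 0.05. Scd1 went from 2.37 (SE 0.322) to 0.15 (SE 0.298, adjusted p = 0.894). Nr1h3, Elovl6 and Scd2 turned to -0.66, -0.04 and -0.04, and the 2 genes that fell, Stard4 and Elovl5, turned to 0.03 and 0.07, none of them called.

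**Figure D4:**
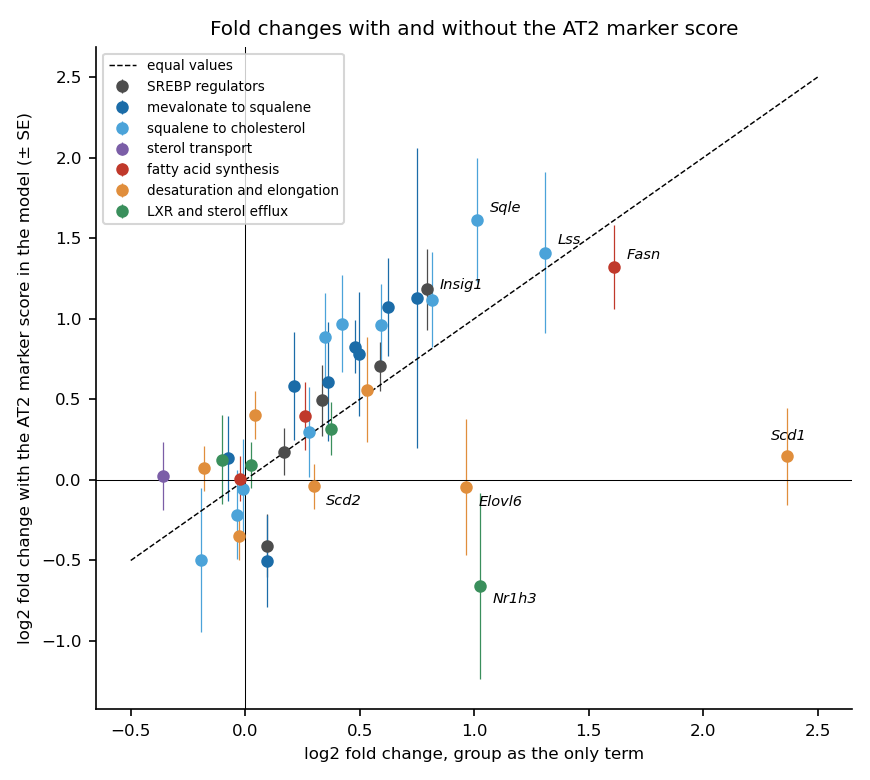
Log2 fold change of each of the 38 genes with group as the only term (horizontal) against that with the AT2 marker score as a further term (vertical, bars of 1 SE), coloured by role. On the dashed line both are equal. Blue points (cholesterol enzymes) with a positive fold change lie mostly above it, and Scd1, Elovl6, Scd2 and Nr1h3 lie below it near or under 0.

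Beyond the 38 genes, 67 other genes of sterol and fatty acid metabolism were listed by function, of which 66 were in the table and 58 were tested. Of these, 20 were called higher (34.5%, against 18.4% of all genes tested), 9 lower (15.5%, near the 17.2% of all genes tested) and 29 not, with a median log2 fold change of 0.10. With the AT2 marker score in the model, 2 of the 58 were called higher, where 1.28% of all genes tested were, and 0 lower. In that fit 244 genes were called in all, against 5542 without the score. Among those with a mean of at least 5 CPM, the largest rises were in Fads3, a desaturase of sphingoid bases that neighbours Fads1 and Fads2, in Ch25h, a hydroxylase that makes an oxysterol from cholesterol, and in Me1, the malic enzyme that supplies NADPH for fatty acid synthesis. Fads3 measured 9.37, 8.14, 8.95 and 9.83 CPM in normoxia 1 to 4 and 32.1, 37.8, 27.7 and 40.4 CPM in hyperoxia 1 to 4 (log2 fold change 1.93, SE 0.119, adjusted p = 2.75e-07). Ch25h and Me1 had log2 fold changes of 1.77 (SE 0.258, adjusted p = 3.06e-04) and 1.74 (SE 0.17, adjusted p = 1.21e-05). All 3 had every hyperoxia library above every normoxia library. Within hyperoxia, Fads3 and Me1 were lowest in hyperoxia 3, as the AT2 markers were, with Me1 at 12.7 CPM there and 18.8 to 21.0 CPM in the other libraries, while Ch25h was highest in hyperoxia 3 at 11.2 CPM. The fit with the AT2 marker score is given above by counts only, and the part of AT2 cells in these rises was not tested. The largest falls were in Hacd1 (log2 fold change -0.69, adjusted p = 0.00548), a dehydratase of very long fatty acids, in Gramd1b (-0.64, adjusted p = 0.00996), which carries cholesterol from the plasma membrane, and in Acacb (-0.57, adjusted p = 5.46e-04), the acetyl-CoA carboxylase at mitochondria. The proteases that free the SREBPs were looked at after their values were seen: Mbtps1, which makes the initial cut, fell from a range of 187 to 199 CPM in normoxia to 146 to 158 CPM in hyperoxia (log2 fold change -0.32, adjusted p = 1.76e-04), and Mbtps2 spanned 31.2 to 36.9 and 33.7 to 35.9 CPM (adjusted p = 0.75).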

How the data were processed

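The authors deposited whole-number gene counts and FPKM (fragments scaled by gene length and library total) for the same 54532 genes in 8 libraries, named in the submitters' processing notes as made with HISAT2 2.0.5 and featureCounts 1.5.0-p3 on mm10. Strand use and the handling of reads with several matches are not given in the sources used here. Groups and library numbers came from the sample titles.

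Tests used edgeR 4.0.16 (R 4.3.3), quasi-likelihood, TMM scaling and default filterByExpr, with no covariate beside the group. The 15564 genes kept held at least 99.8% of the counts of each library. Adjustment was by Benjamini-Hochberg over all genes tested, and called means an adjusted p under 0.05. Positive log2 fold changes mean higher in hyperoxia, with SEs from the F statistic. The study used DESeq2, here an alternative (1.42.0). FPKM served to compare genes with each other and, in limma 3.58.1 on log2(FPKM + 0.1) and log2(FPKM + 1), as alternatives. Log2 ratios of 6 pairs of related genes (0.5 added to each count) were compared by exact two-sided permutation over 70 splits, adjusted over the 6 pairs. CPM were TMM-scaled.

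The 38 genes and all lists were chosen with earlier results of these data known. Values in every library are given for the 5 regulators, the 12 called genes with the largest absolute log2 fold change, the gene with the highest FPKM in each role group, both genes of each pair, and, of other pathway genes with a mean of at least 5 CPM, the 3 largest rises and falls by name. Exon overlaps and 50-base words shared with other genes were computed on GENCODE M21, in which 32 of the 38 had the same coordinates. Abcg1, Fads1, Fads2, Scd1, Scd2 and Tm7sf2 differed there in coordinates and exon length from the counted gene models.

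On simulated counts for this comparison (15342 genes), 88 of 100 genes changed by a log2 fold of 1 and 50 of 100 changed by 0.5 were called, with 7 of 15142 unchanged genes. No other genes were changed in the simulation, whereas 35.6% of genes were called in the data. The p-value cutoff depends on that share, so these rates need not hold for the data. No 2 libraries agreed within counting noise (chi-square per degree of freedom 4.65 or more for every pair), so each counted as 1 sample. Alternatives were other normalizations, no filter on low counts, DESeq2, limma-voom, limma on FPKM, a replicate block, omission of each library in turn, the AT2 marker score or the share of Y-linked counts as a covariate, a fold threshold and, for pairs, 5 counts added.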

Additional observations from a re-analysis of the deposited data

Results flagged for a closer look

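In 4 of the 76 groups of 4 libraries (38 genes in 2 groups), the highest or lowest library lay apart from the other 3 by more than the Dixon critical value for 4 samples allows, and 3.8 are expected by chance. Scd1 was 55.4 CPM in hyperoxia 3 where hyperoxia 1, 2 and 4 held 125 to 129.7 CPM. Hyperoxia 3 also had the lowest AT2 marker sum of its group, 806 CPM against 2120 to 2413 CPM, and the part of these cells in the Scd1 value was not tested. Without hyperoxia 3 the log2 fold change of Scd1 was 2.59 (edgeR, adjusted p = 1.39e-06). With all libraries and the AT2 marker score in the model it was 0.15 (SE 0.298, edgeR, adjusted p = 0.894). Elovl6 was 6.25 CPM in normoxia 1 against 4.20 to 4.38 CPM in the other normoxia libraries. Acat2 was 6.77 CPM in normoxia 2 against 8.12 to 8.34 CPM, and Mvd was 10.6 CPM in hyperoxia 3 against 9.51 to 9.71 CPM in the libraries of the same group.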

How the results depend on the processing

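Under DESeq2 size factors in edgeR, no filter on low counts, DESeq2 and limma-voom, 23 genes were called higher and 2 lower, as reported, with none lost or gained. Upper-quartile scaling lost Mvd, the Y-linked share as a covariate gave 21 called higher, and limma on FPKM gave 20, with Sc5d, Dhcr7 and Acaca lost. Leaving out each library in turn left 20 to 23 called higher and 1 to 3 lower, and 4542 to 5473 genes overall against 5542. The other pathway genes then ran from 18 to 20 higher and 8 to 10 lower. The lowest count of 1 gene lower came without hyperoxia 4 and the highest of 3 without normoxia 1. With a log2 fold change of at least 1 also required, 1084 genes, 5 of the 38 higher and 0 lower, and 5 other pathway genes higher and 0 lower were called. With the AT2 marker score as a covariate, 244 genes were called, 4 of the 38 higher and 0 lower, and 2 other pathway genes higher and 0 lower. There Stard4 reversed to 0.026, Scd2 to -0.038, Elovl5 to 0.072, Elovl6 to -0.043 and Nr1h3 to -0.66 on the log2 scale. The cause of these reversals was not tested.

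Replicate numbers are shared by the groups but did not pair the libraries: deviations of same-numbered libraries correlated at 0.113, 0.0416, -0.139 and -0.174, and no library correlated best with its own number. With the replicate block, 22 genes were called higher, 2 lower and 4990 overall (Sc5d lost). For the gene pairs, the replicate block cannot go below an exact p of 0.125, and Srebf1/Srebf2 (0.26), Insig1/Insig2 (0.69), Scd1/Scd2 (2.01), Fads1/Fads2 (-0.48) and Nr1h3/Nr1h2 (0.95) all stood at 0.125. Leaving out 1 library gave 0.20 to 0.30, 0.55 to 0.81, 1.91 to 2.26, -0.56 to -0.41 and 0.80 to 1.18 for these ratios in the same order, with exact permutation p adjusted over the 6 pairs between 0.0429 and 0.0686, and 3 against 4 libraries give few splits. Depth limits Fdps (9 to 26 counts), Lss and Nr1h3 most.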
